A study of Mus musculus with 24 samples.

Results

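The comparison set detached ID8 p53-/- cells with an edited interferon-gamma receptor gene, Ifngr1-KO, against the sgNTC control line, both given interferon-gamma (IFN-gamma), and asked which genes differed between the lines. It rests on 6 of the 24 libraries of the series, 3 from Ifngr1-KO wells and 3 from sgNTC wells, chosen by their labels and measured across all expressed genes. ID8 is a mouse ovarian surface epithelial cancer line, and both lines here lack p53. Cells were put into ultra-low attachment (ULA) plates, in which they stay detached, received 100 ng/ml recombinant mouse IFN-gamma after 24 h, and were harvested at 48 h of culture, 24 h after the addition. Dead cells were removed from all ULA wells before RNA extraction. Polyadenylated RNA was sequenced. The other libraries used below are Ifngr1-KO and sgNTC cells in ULA wells with PBS vehicle, and both lines in adherent plates with IFN-gamma, each with 3 replicates. Each genotype is 1 line, so differences between the lines and effects of the receptor edit cannot be told apart. The PBS wells show which differences were present without the cytokine.

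IFN-gamma binds a receptor made of the IFNGR1 and IFNGR2 chains. The chains carry the kinases JAK1 and JAK2, and signals from them reach gamma-activated sites (GAS) at target promoters. Early targets include the transcription factor IRF1, which, like complexes that hold IRF9, acts at interferon-stimulated response elements (ISRE). The induced programme covers antigen presentation on MHC molecules, cell-autonomous defence by GTPases, antiviral effectors and the checkpoint ligand PD-L1. Ovarian cancer cells that are shed into the peritoneal fluid live without attachment.

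The 3 Ifngr1-KO libraries held 41454353, 39248741 and 49849934 gene counts, and the 3 sgNTC libraries held 38721194, 37063763 and 40008342. Replicate 2 of Ifngr1-KO stood apart within its group. The chi-square statistic per gene was 19.99 and 25.26 between it and replicates 1 and 3, against 7.476 between the others. On the second principal component of the 6 libraries, which carried 9.05% of the variance, it lay at -40.4, with the other Ifngr1-KO libraries at 24.69 and 18.04. The first component carried 72.7% and separated the lines, with the Ifngr1-KO libraries between -63.75 and -56.98 and the sgNTC libraries between 58.9 and 59.98. Among the sgNTC libraries replicate 2 was low in interferon genes, and it was the lowest of the 3 for 67 of the 84 interferon-list genes described below as lower in Ifngr1-KO. Results that change without either library are given both ways. Mitochondrially encoded genes took 3.31% to 3.77% of counts in Ifngr1-KO and 5.46% to 6.12% in sgNTC libraries.

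Markers of the labelled cell type were present in part. The 24 epithelial and mesothelial markers summed to 5151 to 5528 CPM (counts per 1e6 counts, scaled by TMM factors) in Ifngr1-KO and 3326 to 3344 CPM in sgNTC libraries. Among them the mesothelial genes Wt1 and Msln and the keratins Krt8, Krt18 and Krt19 were abundant, while Epcam and Cldn3 had no count in either group. The macrophage list summed to 24.6 to 35.6 CPM in Ifngr1-KO and 16.4 to 18.4 CPM in sgNTC libraries, with Adgre1, Lyz2 and Tyrobp at 0 in both. Its member Cd68 had 17.1, 23.4 and 13.2 CPM in Ifngr1-KO and 7.58, 5.53 and 5.59 CPM in sgNTC. It was called higher (1.52 ± 0.17), the only call among 4 members tested. Lymphocyte markers summed to at most 0.157 CPM in Ifngr1-KO and 0.651 CPM in sgNTC. Endothelial markers summed to 82.7 to 88.2 CPM in Ifngr1-KO against 26.9 to 30 CPM in sgNTC, nearly all of it Vwf, with Kdr, Emcn and Cldn5 at 0 in both groups. Fibroblast and pericyte markers were at 94.7 to 97.1 CPM in Ifngr1-KO and 92.3 to 102 CPM in sgNTC, most of it Dcn, with Pdgfrb, Thy1 and Lum at 0. Erythroid markers reached at most 0.597 CPM in Ifngr1-KO and 0.717 CPM in sgNTC, with the haemoglobin genes at 0.

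Ifngr1, the edited gene (chromosome 10, 19591949 to 19610229, plus strand, GRCm38), gave 13.3, 14.4 and 13.8 CPM in the Ifngr1-KO libraries, against 35.5, 34 and 35.7 CPM in the sgNTC libraries. The groups did not overlap. The log2 difference, Ifngr1-KO over sgNTC, was -1.34 ± 0.08 (SE from the fit, n = 3 each), with an adjusted p of 1.58e-15 in edgeR's quasi-likelihood test. In PBS wells the levels were 14.5, 14.1 and 15.5 CPM in Ifngr1-KO and 31.7, 37.4 and 37.7 CPM in sgNTC, and the line difference there was -1.28 ± 0.08; the difference between the treatments was not called (adjusted p 0.863). Counts per gene do not show the edited site or the protein. The labels can also be read from the cytokine response. In Ifngr1-KO wells edgeR called 0 of 14622 genes (0%) between IFN-gamma and PBS, with 656 higher and 447 lower at an unadjusted p under 0.05. DESeq2 called 1 gene, and leaving out Ifngr1-KO replicate 2 of the IFN-gamma wells gave 5. In sgNTC wells 300 genes were called (2.05%), 192 higher (1.31%) and 108 lower (0.739%) with IFN-gamma. Of the 104 genes tested on the interferon lists below, 67 were higher with IFN-gamma in sgNTC wells and 0 in Ifngr1-KO wells. The sgNTC count fell to 127 without PBS replicate 2 and to 166 without IFN-gamma replicate 2.

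Across the genome the lines differed widely. A gene is called here when its adjusted p is under 0.05, and past 2-fold when its log2 difference also exceeds 1 in size. Of 14622 genes tested, 8019 were called (54.8%), 4038 of them higher in Ifngr1-KO (27.6%) and 3981 lower (27.2%). Past 2-fold the balance was uneven, with 458 genes higher (3.13%) and 1387 lower (9.49%). The libraries of the groups did not overlap at 8782 genes (60.1%). The median log2 difference over all genes was -0.03. With so many genes called, a list of genes is read below against these shares. These are bulk libraries, in which fewer cells of a kind and less RNA per cell cannot be told apart.

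**Figure D1:**
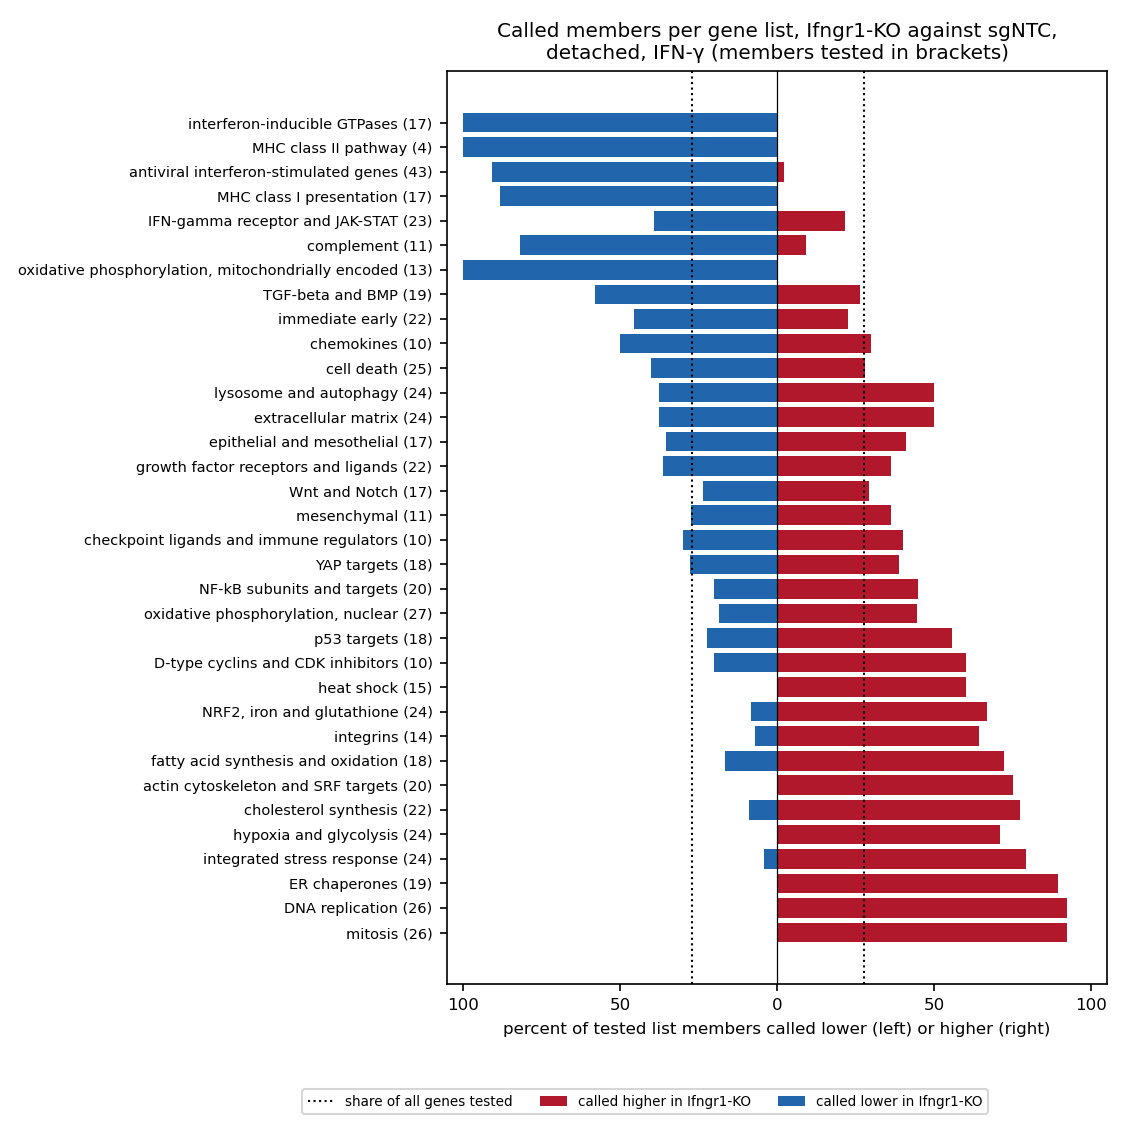
Percent of the tested members of each gene list called lower (blue, to the left) or higher (red, to the right) in Ifngr1-KO than in sgNTC cells, detached, with IFN-gamma; dotted lines mark the shares over all 14622 genes tested, 27.2% lower and 27.6% higher. Complement, the mitochondrially encoded genes and the interferon lists other than receptor and JAK-STAT reach far left. Mitosis, DNA replication and ER chaperones reach far right.

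Genes of the receptor and JAK-STAT list went both ways. Of 23 members tested, 5 were higher and 9 lower, 7 of the 9 past 2-fold, with a median of -0.15. With library totals in place of TMM factors 2 members were higher. Ifngr2, the second receptor chain, had 76.4, 88.8 and 85.7 CPM in Ifngr1-KO and 68.1, 72.3 and 68 CPM in sgNTC libraries, a difference of 0.27 ± 0.07 (adjusted p 0.000784). The kinase genes Jak1 and Jak2 differed by 0.12 ± 0.05 and 0.15 ± 0.05, near the threshold (adjusted p 0.0485 and 0.0163), and both lost the call with library totals. Ptpn11, which encodes the phosphatase SHP2, was higher by 0.28 ± 0.05.

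Irf1, an early target of the pathway, had 55.1, 56.9 and 55 CPM in Ifngr1-KO and 152, 102 and 139 CPM in sgNTC libraries (-1.24 ± 0.09, adjusted p 3.54e-12). In PBS wells, where it had 54.1, 53.7 and 59.7 CPM in Ifngr1-KO and 50, 49.2 and 46 CPM in sgNTC, the lines were close, and the difference there was not called (0.21, adjusted p 0.064). Irf9, a DNA-binding subunit of interferon-activated complexes, stood at 18.9, 21.1 and 19.9 CPM in Ifngr1-KO, against 63.3, 50.6 and 63.7 CPM in sgNTC. Irf7, a regulator of interferon production, stood at 5.42, 6.16 and 5.4 CPM in Ifngr1-KO, against 36.6, 28.6 and 41.7 CPM in sgNTC. Neither gene overlapped between the groups, and the differences were -1.57 ± 0.10 for Irf9 and -2.66 ± 0.19 for Irf7. Socs1, the feedback inhibitor of JAK kinases, was near the detection limit at 0.62, 0.262 and 0.357 CPM in Ifngr1-KO and 0.743, 0.461 and 1.18 CPM in sgNTC, and was not called (-0.94 ± 0.56, adjusted p 0.155).

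**Figure D2:**
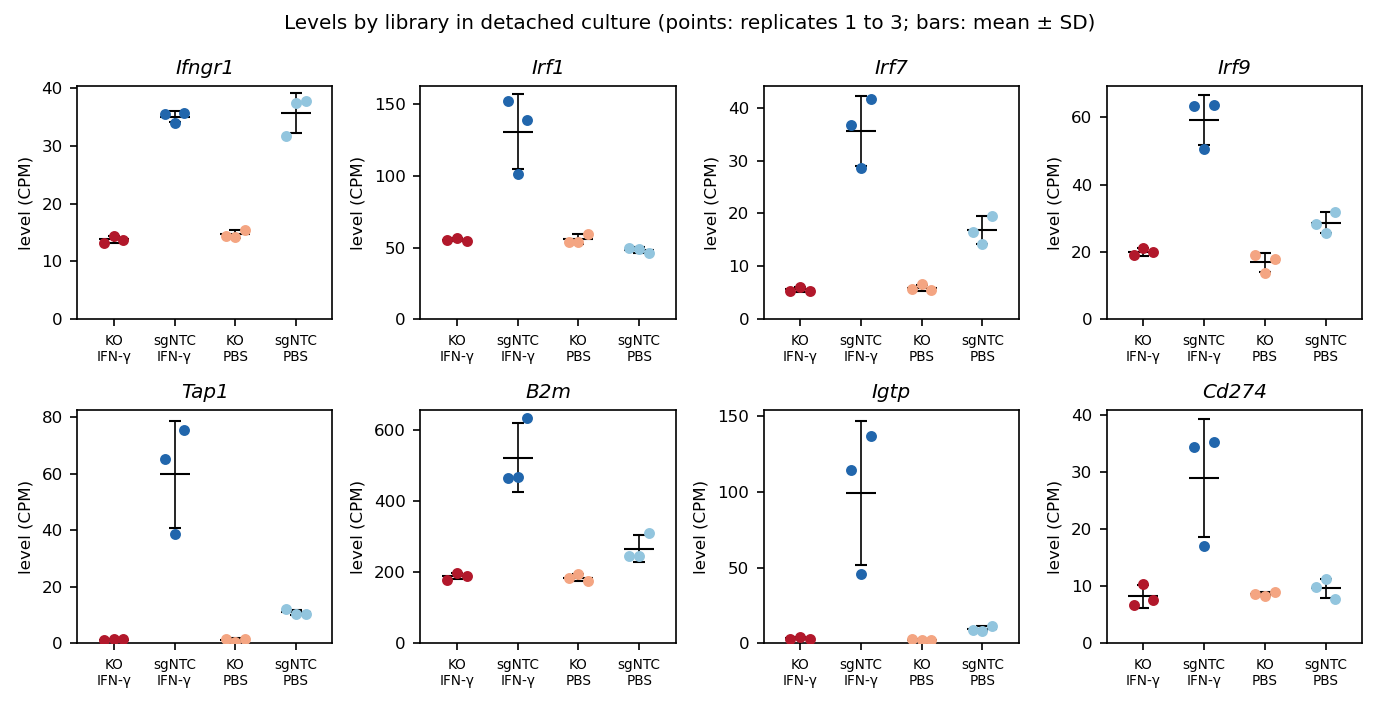
Level in CPM of 8 genes in the detached libraries, Ifngr1-KO left of sgNTC with IFN-gamma and then with PBS; points are the 3 replicates, bars the mean ± SD. With IFN-gamma Igtp lies between 2.98 and 3.99 CPM in Ifngr1-KO and between 45.7 and 137 CPM in sgNTC, while Ifngr1 itself is at a similar level with and without the cytokine in each line.

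The interferon-inducible GTPases, which attack the vacuoles of intracellular pathogens, were lower without exception. All 17 tested members were lower in Ifngr1-KO and all 17 passed 2-fold, with a median of -3.96. Igtp, which encodes IRGM3, had 2.98, 3.99 and 2.98 CPM in Ifngr1-KO libraries and 115, 45.7 and 137 CPM in sgNTC libraries (-4.91 ± 0.36, adjusted p 5.29e-09). Irgm2 had 5.13, 6.53 and 5.44 CPM in Ifngr1-KO and 160, 93.3 and 205 CPM in sgNTC libraries (-4.75 ± 0.32). In both genes the groups were far apart although the sgNTC libraries differed among themselves by more than a factor of 2. Tgtp2, the T-cell-specific GTPase, had 1.77, 3.28 and 2.12 CPM in Ifngr1-KO and 46.7, 21.6 and 67.6 CPM in sgNTC. Iigp1, or IRGA6, was close to absent in Ifngr1-KO at 0.0477, 0.157 and 0 CPM, against 87.2, 17.7 and 123 CPM in sgNTC. Gvin1, a very large inducible GTPase, had 4 counts in all Ifngr1-KO libraries together and 1471 in the sgNTC libraries. Ifi47 and Gbp6 were also lower, by -2.54 ± 0.20 and -3.48 ± 0.47. Several of these genes have near-identical copies, among them the pair Tgtp1 and Tgtp2, so reads may be split between copies and single-gene levels are uncertain.

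Promoters are shown for 4 members of the interferon lists, since these genes moved together with the cytokine. They have the most negative called difference between IFN-gamma and PBS among eligible list members that matched a window in the RefSeq table. Some list members were not eligible because of the chromosome they lie on, so these 4 need not be the most negative of all members. Zbp1 is named below without a window. The windows come from RefSeq (GRCm38.p6), run from 250 bases before to 50 bases after the gene start, and are written 5′ to 3′ on the gene's strand. Capitals mark the GAS letters TTCNNNGAA and the ISRE letters, GAAA, any 2 bases and GAAA again, searched on both strands. The motifs do not overlap in these windows.
Tgtp2, chr11:49064163-49064462, minus strand: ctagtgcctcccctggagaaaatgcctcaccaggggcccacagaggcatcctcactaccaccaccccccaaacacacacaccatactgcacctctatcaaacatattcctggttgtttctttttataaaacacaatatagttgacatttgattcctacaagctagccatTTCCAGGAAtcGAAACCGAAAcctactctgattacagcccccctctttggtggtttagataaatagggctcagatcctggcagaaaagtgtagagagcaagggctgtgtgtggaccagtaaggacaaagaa
Irgm2, chr11:58214727-58215026, plus strand: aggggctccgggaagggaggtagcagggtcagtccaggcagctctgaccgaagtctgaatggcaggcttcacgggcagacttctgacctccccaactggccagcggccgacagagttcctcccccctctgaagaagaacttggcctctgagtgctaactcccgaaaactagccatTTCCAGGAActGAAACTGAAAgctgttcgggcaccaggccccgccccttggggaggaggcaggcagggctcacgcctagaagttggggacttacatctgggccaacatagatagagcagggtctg
Igtp, chr11:58199306-58199605, plus strand: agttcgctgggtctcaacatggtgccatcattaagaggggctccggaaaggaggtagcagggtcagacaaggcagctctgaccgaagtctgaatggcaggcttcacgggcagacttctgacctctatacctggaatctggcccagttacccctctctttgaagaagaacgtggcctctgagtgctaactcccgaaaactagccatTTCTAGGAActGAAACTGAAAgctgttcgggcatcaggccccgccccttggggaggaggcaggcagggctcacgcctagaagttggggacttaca
Psmb9, chr17:34187281-34187580, minus strand: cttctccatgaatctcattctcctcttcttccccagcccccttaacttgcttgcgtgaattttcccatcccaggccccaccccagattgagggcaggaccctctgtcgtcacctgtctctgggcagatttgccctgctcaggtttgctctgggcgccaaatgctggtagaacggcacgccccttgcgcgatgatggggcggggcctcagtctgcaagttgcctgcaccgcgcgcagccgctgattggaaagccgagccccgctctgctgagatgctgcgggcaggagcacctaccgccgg
In Tgtp2, Irgm2 and Igtp a GAS match begins 81, 75 and 45 bases before the start. An ISRE match follows it after 2 bases in all 3, beginning 70, 64 and 34 bases before the start. Irgm2 and Igtp are paralogs, and their windows resemble each other well beyond the motifs. These letters do not occur in the Psmb9 window.

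Over the genome, 8.47% of the 27025 RefSeq windows held the GAS letters and 3.49% the ISRE letters. Among the genes tested the shares were 6.91% and 3.08% of 10879 windows. The 80 windows of the interferon lists held GAS in 27.5% and ISRE in 38.8%. Among the 905 windows of genes lower past 2-fold the shares were 7.4% for GAS and 7.96% for ISRE, and among the 337 windows of genes higher past 2-fold they were 7.12% and 1.78%. A match is a description of the letters and was not tested as a binding site.

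Most tested genes of antigen presentation on MHC class I were lower. Of 20 entries 17 were tested. Of these 15 were lower, 8 of them past 2-fold, and none was higher, with a median of -0.85. Erap1 and Psme2 were not called. Nlrc5, the transactivator of MHC class I genes, had no count in any Ifngr1-KO library, against 9.83, 5.1 and 11.9 CPM in sgNTC libraries. It was at least 391-fold lower, taking 3 counts over the whole Ifngr1-KO group as the floor. Tap1, a subunit of the peptide transporter, had 1.17, 1.36 and 1.49 CPM in Ifngr1-KO and 65.2, 38.8 and 75.3 CPM in sgNTC libraries (-5.47 ± 0.36, adjusted p 2.91e-10). Psmb9, an immunoproteasome subunit, had 0.0477, 0 and 0.119 CPM in Ifngr1-KO and 11.7, 6.69 and 15.3 CPM in sgNTC. For all 3 genes the groups lay far apart. Nlrc5 and Psmb9, near absent in Ifngr1-KO, could differ in 1 direction only. The constant chain B2m was at 179, 198 and 189 CPM in Ifngr1-KO, against 465, 467 and 633 CPM in sgNTC, a difference of -1.47 ± 0.11. Of the heavy chains, H2-K1 differed by -1.61 ± 0.15 and H2-D1 by -0.47 ± 0.09, with 176, 151 and 180 CPM of H2-D1 in Ifngr1-KO and 238, 203 and 262 CPM in sgNTC. Class I heavy chain genes are close relatives, and reads may be shared between them.

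The MHC class II pathway was low in both lines and lower in Ifngr1-KO. Of 10 entries 4 passed the filter on low counts, and all 4 were lower past 2-fold. The other entries include the class II chains H2-Aa, H2-Ab1 and H2-Eb1, which were not tested. The filter drops members low in both lines and keeps a gene with enough counts in 1 group. Ciita passed it through sgNTC libraries, so its direction was largely set by the filter. The 4 of 4 is therefore not support for a shared direction. Ciita, the class II transactivator, had 0.215, 0.0787 and 0.0397 CPM in Ifngr1-KO and 6.12, 2.84 and 8.05 CPM in sgNTC (-5.67 ± 0.60, adjusted p 2.9e-10). Cd74, the invariant chain, had 0.477, 0.21 and 0.436 CPM in Ifngr1-KO and 14.6, 4.1 and 18.9 CPM in sgNTC (-5.03 ± 0.55). Replicate 2 was again the lowest sgNTC library for both genes.

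Antiviral interferon-stimulated genes were lower as a block. Of 43 members tested 39 were lower, 29 past 2-fold, and 1 was higher, with a median of -1.76. Oas1a, a sensor of double-stranded RNA, had 0.0955, 0.551 and 0.357 CPM in Ifngr1-KO and 19.5, 17.5 and 23.8 CPM in sgNTC libraries. Oas3, of the same family, had 1.1, 0.551 and 0.615 CPM in Ifngr1-KO and 37, 26.8 and 41.6 CPM in sgNTC. Both were lower by more than 5 on the log2 scale (-5.92 ± 0.53 and -5.54 ± 0.28). Zbp1, a sensor of Z-form nucleic acids that can trigger necroptosis, had 0, 0.315 and 0.238 CPM in Ifngr1-KO and 7.11, 3.38 and 8.77 CPM in sgNTC (-5.10 ± 0.65). Isg20, an exonuclease, went the other way, with 75.7, 83 and 82.6 CPM in Ifngr1-KO and 51.1, 39.6 and 53 CPM in sgNTC (0.75 ± 0.11). It was also higher in Ifngr1-KO in PBS wells (0.80). Taken over the 5 lists without repeats, 84 of 104 tested genes were lower, beside 27.2% of all genes. Members near absent in Ifngr1-KO, such as Nlrc5 and Iigp1, are in this count. They could differ in 1 direction only, so the count is partly set by the filter on low counts. In all 84 the 3 Ifngr1-KO libraries lay under the 3 sgNTC libraries, as they did at 4513 of all 14622 genes. The 84 were called from these same libraries, so the separation is not further support.

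Checkpoint ligands and regulators did not move as one, with 4 of 10 tested members higher and 3 lower, beside 27.6% and 27.2% of all genes. Cd274, which encodes PD-L1, had 6.68, 10.4 and 7.56 CPM in Ifngr1-KO libraries, against 34.4, 17 and 35.4 CPM in sgNTC libraries. The groups did not overlap, and the difference was -1.82 ± 0.27 (adjusted p 1.58e-05). Pvr, the ligand of TIGIT and CD226, had 157, 184 and 162 CPM in Ifngr1-KO and 64.9, 62 and 65.5 CPM in sgNTC (1.39 ± 0.06). Ptgs2, the inducible prostaglandin synthase, was higher by 0.57 ± 0.12. Among 10 chemokines tested, 5 were lower and 3 higher, to be read beside the same shares. Cxcl12, the ligand of CXCR4, was at 161, 160 and 148 CPM in Ifngr1-KO and 294, 271 and 293 CPM in sgNTC (-0.87 ± 0.08). Ccl2, a monocyte attractant, was at 8.71, 9.1 and 8.93 CPM in Ifngr1-KO and 1.49, 2.13 and 2.99 CPM in sgNTC (2.01 ± 0.28). Complement genes were lower in 9 of 11 tested members and higher in 1, with a median of -1.56 with IFN-gamma and -1.02 in PBS. C4b, a complement component, had 0.668, 0.682 and 0.536 CPM in Ifngr1-KO and 17.3, 11.9 and 15.9 CPM in sgNTC. The NF-kB list had 9 members higher and 4 lower of 20, led by Tnfaip2 at 0.76 ± 0.05 and Relb at 0.57 ± 0.09 and, lower, by Vcam1 at -1.23 ± 0.20 and Csf1, a macrophage growth factor, at -1.08 ± 0.06.

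The PBS wells show which of these differences were there without IFN-gamma. They share no library with the comparison above. Of the genes called higher with IFN-gamma, 3016 were also called higher in PBS, which is 74.7% of the 4038 and 84.2% of the PBS calls. Of those called lower, 3077 were shared, which is 77.3% of the 3981 and 82.4% of the PBS calls. 18 genes were called in opposite directions. In PBS 50.1% of genes were called in all, 24.5% higher and 25.6% lower. The difference between the line differences, IFN-gamma minus PBS, was tested directly as an interaction, and it was called at 195 genes (1.33%), 79 more positive (0.54%) and 116 more negative (0.793%). Of the 116, 43 belonged to the 5 interferon lists, and of the 79 none did. Past 2-fold, 36 genes were more negative (0.246%) and 1 was more positive (0.00684%). The more negative genes had a median line difference of -0.97 with IFN-gamma and -0.20 in PBS, and the more positive ones 0.47 with IFN-gamma and 0.13 in PBS. The count of 195 fell to 75 without Ifngr1-KO PBS replicate 1 and to 78 without sgNTC PBS replicate 2. With library totals the split was 55 more positive and 151 more negative. The more positive calls numbered 156 without Ifngr1-KO replicate 2 and 42 without sgNTC replicate 2 of the IFN-gamma wells.

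**Figure D3:**
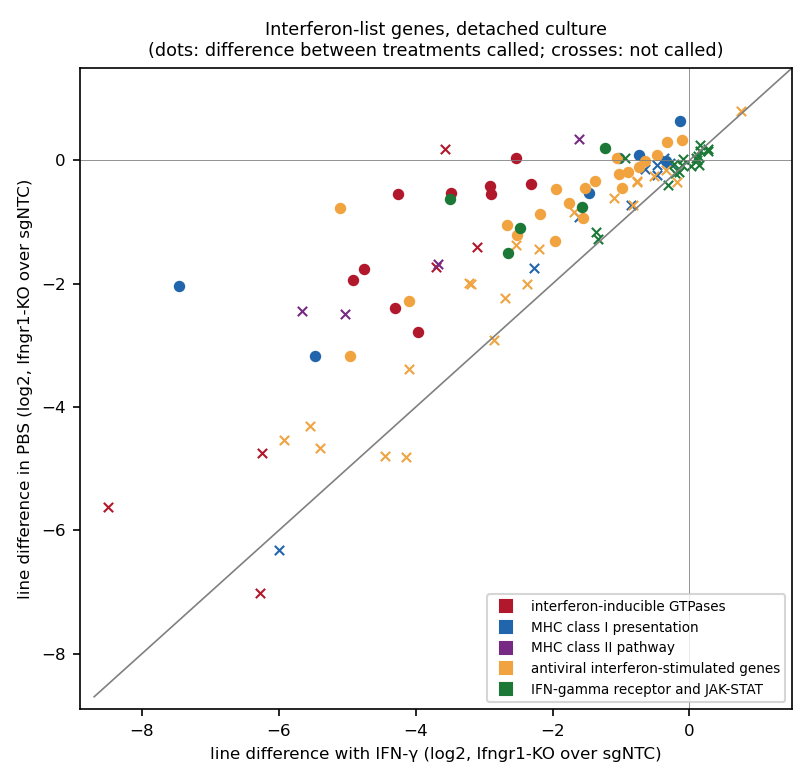
Log2 line difference, Ifngr1-KO over sgNTC, in detached cells with IFN-gamma (horizontal) and with PBS (vertical) for 102 tested genes of the 5 interferon lists; dots mark genes whose difference between treatments was called, crosses those where it was not, and the line marks equality. Nlrc5 and Iigp1 lie beyond the axis; most genes lie above the line, closer to 0 in PBS than with IFN-gamma.

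The 5 interferon lists had a median of -1.61 with IFN-gamma and -0.55 in PBS. In PBS 62 of the 104 tested genes were still lower in Ifngr1-KO, a share to be read beside 25.6% of all genes, and 39 of them were past 2-fold, beside 7.82%. The more negative difference with IFN-gamma was called at 10 of 17 GTPases, 21 of 43 antiviral genes, 7 of 17 class I genes, 5 of 23 receptor-list genes and 0 of 4 class II genes, against 0.793% of all genes. Without sgNTC replicate 2 of the IFN-gamma wells, this difference was called at 2 of 4 class II genes. For Psmb9 it was -5.43 ± 0.97 (adjusted p 0.000724), the most negative of the named genes with a called difference. Psmb9 was at 0.209, 0.511 and 0.102 CPM in Ifngr1-KO and 0.968, 1.4 and 1.04 CPM in sgNTC with PBS. Few Ifngr1-KO counts were present with either treatment, so the size of this difference is imprecise. For Irf1 it was -1.44 ± 0.13 (adjusted p 1.83e-07) and for Ifi47 -2.59 ± 0.29, a pair of genes with nearly equal levels in the 2 lines without the cytokine. Igtp, Irgm2 and Tgtp2 gave -2.96 ± 0.54, -2.98 ± 0.46 and -3.71 ± 0.72. Tap1, B2m, Cd274 and Irf9 gave -2.30 ± 0.53, -0.93 ± 0.16, -1.66 ± 0.39 and -0.81 ± 0.15. Zbp1, Gbp6 and Irf7 gave -4.34 ± 0.96, -2.95 ± 0.68 and -1.16 ± 0.26. Other genes were also far lower in Ifngr1-KO without the cytokine, and their interaction was not called, which does not show that the treatments were alike. Oas3 differed by -5.54 with IFN-gamma and -4.30 in PBS. C4b differed by -4.58 with IFN-gamma and -3.51 in PBS.

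Windows of the 88 genes with a promoter in the RefSeq table among the 116 held GAS in 15.9% and ISRE in 23.9%. For the more positive genes the shares were 0% of 62 windows for GAS and 1.61% for ISRE, against 6.91% and 3.08% over all genes tested.

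Genes that became more positive with IFN-gamma were modest in size. Wnt7b, a Wnt ligand, had 6.32, 8.26 and 7.6 CPM in Ifngr1-KO and 0.0495, 0.0512 and 0.145 CPM in sgNTC with IFN-gamma, and its sgNTC level with PBS was 0.197, 0.501 and 0.604 CPM. The interaction was 2.09 ± 0.60 (adjusted p 0.0372) and rests on 10 sgNTC counts with IFN-gamma. Lgals3, or galectin-3, had 619, 649 and 686 CPM in Ifngr1-KO and 295, 228 and 303 CPM in sgNTC with IFN-gamma. With PBS it had 600, 599 and 603 CPM in Ifngr1-KO and 367, 388 and 387 CPM in sgNTC, and the interaction was 0.59 ± 0.14. Rcor2, Atf5, Metrnl, Gpi1, Smox and Arf6 gave between 0.49 and 0.69. The hypoxia and glycolysis list had 6 of 24 members more positive, against 0.54% of all genes, and 3 without sgNTC replicate 2. Vim and Wwc1, named through their lists, gave 0.35 ± 0.08 and 0.32 ± 0.07, and Btg2 gave -0.40 ± 0.09. Of the 25 named genes with a called interaction, 17 lost the call when 1 of the libraries was left out or under another alternative. Irf1, Ifi47, Irf9, B2m, Irgm2, Psmb9 and Arf6 were among those that kept it under all.

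Genes of the cell cycle were higher in detached Ifngr1-KO cells. In the mitosis list 24 of 26 tested members were higher and none lower, with a median of 0.60, and none passed 2-fold. The DNA replication list likewise had 24 of 26 higher and none lower, with a median of 0.56. Mki67, a marker of cycling cells, had 485, 463 and 453 CPM in Ifngr1-KO and 218, 241 and 247 CPM in sgNTC (0.99 ± 0.07, adjusted p 2.53e-14). Aurkb, a kinase of the chromosomal passenger complex, differed by 0.93 ± 0.08. Rrm2, which makes deoxynucleotides, had 171, 165 and 158 CPM in Ifngr1-KO and 78.4, 83.3 and 92.2 CPM in sgNTC (0.96 ± 0.07), and Mcm3, of the replicative helicase, differed by 0.87 ± 0.05. In each of these genes the groups stood clear of each other. Ccnd1, cyclin D1, had 126, 130 and 133 CPM in Ifngr1-KO and 49.8, 50.8 and 55.1 CPM in sgNTC (1.32 ± 0.06), and the inhibitor Cdkn1a, or p21, was also higher, with 160, 216 and 187 CPM in Ifngr1-KO and 67.6, 52.6 and 81 CPM in sgNTC (1.48 ± 0.17). Cdkn1b and Cdk4 were slightly lower (-0.27 ± 0.06 and -0.25 ± 0.06). In PBS the medians were 0.62 for mitosis and 0.59 for DNA replication, and no member of either list had a called difference between the treatments.

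Lipid and glucose metabolism genes were mostly higher. Of 22 cholesterol synthesis genes tested 17 were higher and 2 lower, with a median of 0.66 with IFN-gamma and 0.57 in PBS. Sqle, squalene epoxidase, had 266, 262 and 278 CPM in Ifngr1-KO and 97.4, 104 and 107 CPM in sgNTC (1.39 ± 0.05). Hmgcs1, an early enzyme of the same pathway, was lower instead, with 437, 345 and 430 CPM in Ifngr1-KO and 561, 605 and 564 CPM in sgNTC (-0.51 ± 0.07). Fatty acid genes were higher in 13 of 18 and lower in 3. Scd2, a stearoyl-CoA desaturase, differed by 1.28 ± 0.06 and the regulator Srebf1 by 0.94 ± 0.05, while Cpt1a and Acadl of fatty acid oxidation were lower (-0.48 ± 0.05 and -0.26 ± 0.05). The hypoxia and glycolysis list had 17 of 24 members higher and none lower, with a median of 0.60 with IFN-gamma and 0.34 in PBS. Slc2a1, the glucose transporter GLUT1, had 736, 961 and 795 CPM in Ifngr1-KO and 321, 233 and 403 CPM in sgNTC (1.38 ± 0.16). Ldha, lactate dehydrogenase, had 3170, 3345 and 3221 CPM in Ifngr1-KO and 1878, 1594 and 1864 CPM in sgNTC (0.87 ± 0.08).

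The integrated stress response list holds genes that ATF4 drives when amino acids are short or proteins misfold. It was higher in 19 of 24 members and lower in 1, with 11 past 2-fold. The median was 0.89 with IFN-gamma and 0.92 in PBS, where 18 members were higher and 2 lower. Trib3, a pseudokinase of this response, had 60.5, 84.7 and 77.9 CPM in Ifngr1-KO and 18.6, 13.4 and 18.9 CPM in sgNTC (2.13 ± 0.15, adjusted p 1.17e-09). Slc7a11, the cystine transporter, had 79.3, 143 and 85 CPM in Ifngr1-KO and 21.3, 18.5 and 24.5 CPM in sgNTC (2.26 ± 0.18). The groups did not overlap, and replicate 2 was the highest Ifngr1-KO library for both. Ddit3, or CHOP, was the member that was lower, with 17, 16.1 and 19.2 CPM in Ifngr1-KO and 26.7, 23.7 and 24.3 CPM in sgNTC (-0.51 ± 0.09). ER chaperones and folding enzymes were higher in 17 of 19 and lower in none, led by Creld2 at 1.12 ± 0.07 and Hyou1 at 1.00 ± 0.06. Their median was 0.65 with IFN-gamma and 0.50 in PBS. Cytosolic heat shock genes were higher in 9 of 15 and lower in none, led by Hsp90aa1 at 0.87 ± 0.06. The NRF2, iron and glutathione list had 16 of 24 higher and 2 lower; Hmox1, haem oxygenase, had 317, 533 and 326 CPM in Ifngr1-KO and 211, 141 and 222 CPM in sgNTC (1.03 ± 0.19), and Aifm2, a ferroptosis suppressor, was lower by -0.73 ± 0.10.

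All 13 mitochondrially encoded respiratory genes tested were lower, 6 past 2-fold, with a median of -0.98 with IFN-gamma and -1.01 in PBS. mt-Atp8 had 6.13, 3.59 and 4.76 CPM in Ifngr1-KO and 9.71, 29.8 and 23.6 CPM in sgNTC, and mt-Nd4l differed by -1.37 ± 0.31. The nuclear genes of the same complexes did not share this direction, with 12 of 27 higher and 5 lower and a median of 0.17. Without Ifngr1-KO replicate 2 the counts became 20 higher and 0 lower, and without sgNTC replicate 2 the lower calls numbered 1. Cyc1, cytochrome c1, was higher by 0.68 ± 0.07 and Sdhd by 0.63 ± 0.07, and Ndufa2 and Ndufa4 of complex I were lower by -0.43 ± 0.14 and -0.37 ± 0.11.

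Adhesion genes were largely higher. Of 14 integrins tested 9 were higher, 6 past 2-fold, and 1 lower. Itgb3, the beta chain of the vitronectin receptor, had 654, 612 and 668 CPM in Ifngr1-KO and 247, 224 and 224 CPM in sgNTC (1.48 ± 0.07). Itgb4, the laminin-binding partner of alpha 6, had 12.5, 9.6 and 10.7 CPM in Ifngr1-KO and 2.01, 1.69 and 1.45 CPM in sgNTC (2.67 ± 0.20). Itgb8 was lower by -0.60 ± 0.12. The matrix list was split, 12 of 24 higher and 9 lower, 8 of these past 2-fold. Thbs1, thrombospondin 1, had 408, 396 and 363 CPM in Ifngr1-KO and 86.4, 75.6 and 90.9 CPM in sgNTC (2.21 ± 0.07), while the fibrillar collagen Col1a1 had 6.11, 6.16 and 4.5 CPM in Ifngr1-KO and 21.4, 18.4 and 19 CPM in sgNTC (-1.82 ± 0.14). Lox, which cross-links collagen, was lower by -1.04 ± 0.13. Actin and SRF-target genes were higher in 15 of 20 and lower in none, with Actn1 at 0.94 ± 0.06 and Actg1 at 0.93 ± 0.06. YAP targets had 7 of 18 higher and 5 lower, beside 27.6% and 27.2% of all genes. Ccn2, a widely used target, was lower (-1.11 ± 0.08) and F3, tissue factor, was higher (1.08 ± 0.09).

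Markers of the mesothelial and epithelial state were divided, with 7 of 17 tested higher and 6 lower. This and the next lists are read beside 27.6% of all genes higher and 27.2% lower. Upk1b, a uroplakin, had 140, 140 and 146 CPM in Ifngr1-KO and 51, 46.4 and 55.2 CPM in sgNTC (1.48 ± 0.05), and Krt8 was higher by 1.11 ± 0.07. Muc16, which carries the CA125 epitope used as an ovarian cancer marker, had 1.81, 0.551 and 1.63 CPM in Ifngr1-KO and 32, 34.4 and 30 CPM in sgNTC (-4.56 ± 0.31). Gata4 was lower by -0.78 ± 0.05. Of 11 mesenchymal genes 4 were higher and 3 lower. Cd44, the hyaluronan receptor, had 533, 608 and 539 CPM in Ifngr1-KO and 192, 196 and 203 CPM in sgNTC (1.51 ± 0.05). Immediate early genes were lower in 10 of 22 and higher in 5. Fosb had 30, 38.8 and 22.8 CPM in Ifngr1-KO and 127, 76.7 and 79.7 CPM in sgNTC (-1.63 ± 0.22), Zfp36 differed by -1.60 ± 0.10, and Fosl1 was higher by 1.31 ± 0.13. TGF-beta and BMP genes were lower in 11 of 19 and higher in 5. Id3 and Smad6, targets of BMP signals, were lower (-1.04 ± 0.12 and -0.83 ± 0.14), and Ltbp1, which anchors latent TGF-beta, was higher (1.38 ± 0.06).

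The remaining lists moved less or in both directions. Over all genes 27.6% were higher and 27.2% lower. Trp53 itself, disrupted in both lines, had 16.8, 18 and 18.7 CPM in Ifngr1-KO and 17.9, 18.9 and 16.8 CPM in sgNTC, and was not called (adjusted p 0.997). Of 18 p53 targets 10 were higher and 4 lower, with Sesn1 at -1.19 ± 0.09 and Btg2 at -1.39 ± 0.06. In the cell death list 7 of 25 were higher, a share near that of all genes, and 10 lower. The pro-apoptotic genes split between Bax at 0.84 ± 0.10 and Bmf, an anoikis-linked BH3-only gene, at -1.21 ± 0.08. The survival gene Bcl2l1 was at 0.79 ± 0.08. In lysosome and autophagy genes 12 of 24 were higher and 9 lower, with Ulk1, the kinase that starts autophagy, at 68.8, 69.1 and 62.7 CPM in Ifngr1-KO and 140, 145 and 133 CPM in sgNTC (-1.06 ± 0.06), and Neu1, a lysosomal sialidase, higher by 0.64 ± 0.08. Wnt and Notch genes were higher in 5 of 17 and lower in 4, shares near those of all genes, with Jag2 at 1.45 ± 0.12 and Rnf43, a negative regulator of Wnt receptors, at -2.02 ± 0.31. Growth factor genes had 8 of 22 higher and 8 lower. Areg, an EGF receptor ligand, had 29.5, 38.6 and 31.8 CPM in Ifngr1-KO and 7.53, 6.22 and 6.73 CPM in sgNTC (2.28 ± 0.14). Fgfr2 was higher by 1.96 ± 0.17, and Kitl and Erbb3 were lower by -0.94 ± 0.05 and -0.89 ± 0.14.

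The largest single differences lay outside these lists. Xist, the noncoding RNA that coats the inactive X chromosome, had 0.0955, 0.105 and 0.119 CPM in Ifngr1-KO libraries, against 365, 377 and 400 CPM in sgNTC libraries. The groups differed by -11.75 ± 0.47, and by -10.94 in PBS. Xist overlaps the antisense gene Tsix, and whether reads were counted by strand is not given in the sources used here. Ptpn13, Soga3 and Hs6st2 had no count in any Ifngr1-KO library. The sgNTC libraries had 21, 20.5 and 17.9 CPM of Ptpn13, a phosphatase, which makes it at least 860-fold lower in Ifngr1-KO with 3 counts over the group as the floor. Soga3 was at least 395-fold and Hs6st2, a heparan sulfate sulfotransferase, at least 306-fold lower. Dab2ip, a Ras GTPase-activating protein, had 2 counts in the Ifngr1-KO group and 2519 in the sgNTC group. The ratio was 0.000736, with a 95% counting interval of 8.91e-05 to 0.00266. This interval and the 3-count floors, that for Nlrc5 included, treat counts as independent and leave out the spread between wells. Both mates of a pair appear to have been counted, so the interval is too narrow and the fold bounds may be too high. Gas1, a growth-arrest gene, had 0.0955, 0 and 0.159 CPM in Ifngr1-KO and 54, 50.6 and 52.1 CPM in sgNTC, and the desmosomal cadherin Dsg2 had 0, 0 and 0.0793 CPM in Ifngr1-KO and 25.9, 27.3 and 23.7 CPM in sgNTC. Cacna2d2, Hmcn1 and Cybb, a subunit of the phagocyte NADPH oxidase, showed the same pattern. In all, 13 genes averaged at least 5 CPM in sgNTC and stayed under 0.1 CPM in every Ifngr1-KO library, 2 of them on the X chromosome, and no gene showed the opposite. The 12 genes with the largest falls, Nlrc5 and Iigp1 included, were also called lower in PBS, except Iigp1, which was not called there.

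In the other direction Wnt7b was followed by Pxdn, a matrix peroxidase, with 32, 35.9 and 32.2 CPM in Ifngr1-KO and 1.83, 2.48 and 1.25 CPM in sgNTC (4.17 ± 0.16, adjusted p 4.11e-21). F13a1, a coagulation factor subunit, had 244, 248 and 231 CPM in Ifngr1-KO and 24.1, 22.9 and 18.3 CPM in sgNTC (3.47 ± 0.10). Muc4, a membrane mucin, had 236, 223 and 208 CPM in Ifngr1-KO and 26.8, 27.1 and 27.9 CPM in sgNTC (3.03 ± 0.12). The libraries of each line lie close together for these genes, and the lines are far apart. Npnt, a ligand of integrin alpha 8 beta 1, differed by 3.21 ± 0.10, the potassium channel gene Kcnh1 by 3.99 ± 0.38 and the R-spondin receptor Lgr6 by 3.18 ± 0.24. Fgfbp1, Lhfpl2 and Arhgap22 followed, at 2.87 ± 0.19, 2.64 ± 0.11 and 2.57 ± 0.16. In PBS these genes differed by 2.25 to 4.34. The Cas9 transgene feature had 90.3, 107 and 92.2 CPM in Ifngr1-KO and 1794, 1748 and 1669 CPM in sgNTC libraries (-4.17 ± 0.07), and differed by -4.29 in PBS.

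Genes called lower were not spread evenly over the chromosomes. On chromosome 10, which carries Ifngr1, 404 of 701 tested genes were lower (57.6%) and 40 higher (5.71%), with a median of -0.44. On chromosome 18, 220 of 366 were lower (60.1%) and 27 higher (7.38%), with a median of -0.39. Chromosomes 1 and 8 had 45.6% and 42.1% lower, with medians of -0.29 and -0.23. On the other autosomes the median lay between -0.09 and 0.13. The same chromosomes stood out in PBS, where the medians were -0.45 on 10, -0.39 on 18, -0.23 on 1 and -0.25 on 8, and in adherent cells, where they were -0.49, -0.51, -0.28 and -0.23. On chromosome 10, 124 of the 701 genes (17.7%) were lower past 2-fold, as was Ifngr1 at -1.34. The part of these chromosome-wide differences in the results for single genes was not tested.

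**Figure D4:**
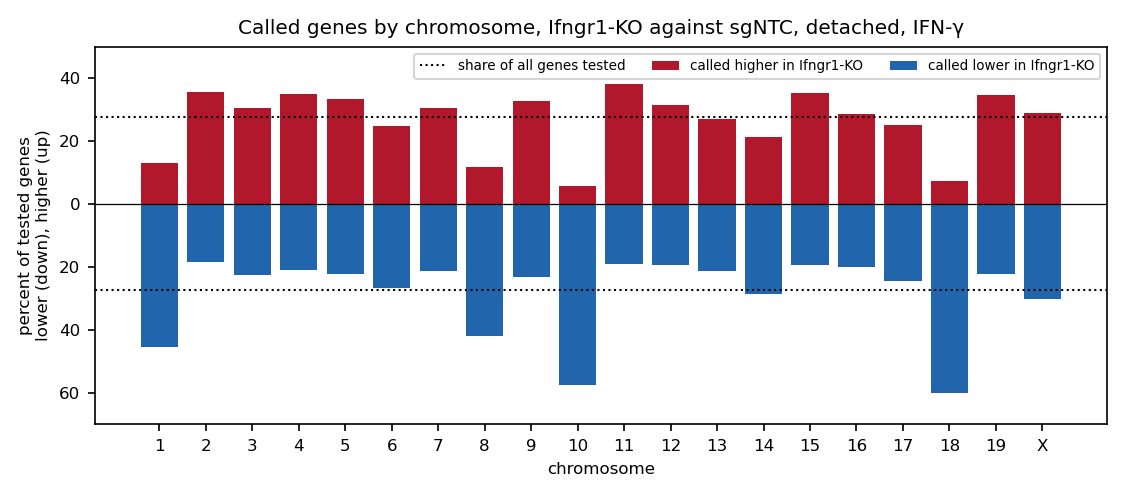
Percent of tested genes called higher (red, up) or lower (blue, down) in Ifngr1-KO than in sgNTC cells by chromosome, detached, with IFN-gamma; dotted lines mark the shares over all genes, 27.6% and 27.2%. Chromosomes 1, 8, 10 and 18 have more lower and fewer higher genes than the rest.

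Adherent wells of the same lines with IFN-gamma give the same line difference in attached cells. They share no library with the detached wells. There 43.3% of genes were called between the lines, 20.2% higher and 23.1% lower in Ifngr1-KO. Of the genes higher in detached Ifngr1-KO cells 1793 were also higher in adherent cells, 44.4% of the 4038 and 60.7% of the adherent calls. Of those lower 2054 were shared, 51.6% of the 3981 and 60.8% of the adherent calls. At 610 genes the calls went in opposite directions. The difference between the line differences, ULA minus adherent, was called at 4721 genes (32.3%), with 2776 more positive (19%) and 1945 more negative (13.3%). With library totals the split turned to 1759 more positive and 2858 more negative, and the median over all genes moved to -0.12, so lists near 0 have no firm direction here.

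**Figure D5:**
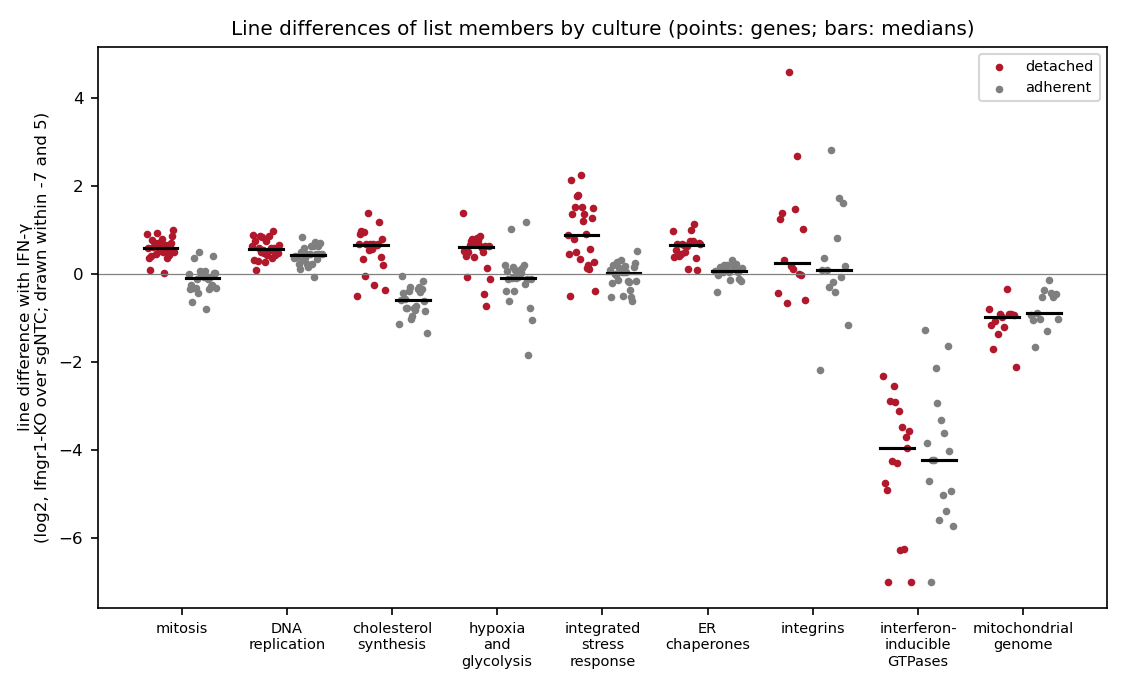
Log2 line difference with IFN-gamma, Ifngr1-KO over sgNTC, of each tested member of 9 lists in detached (red) and adherent cells (grey); bars are medians. The mitosis, cholesterol, glycolysis, stress and ER chaperone lists lie above 0 in detached cells and near or below 0 in adherent cells, while the GTPases are low in both.

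Several cell-state lists differed between the cultures. The mitosis list had a median of 0.60 in detached and -0.09 in adherent cells, and 25 of 26 members were more positive in detached cells, against 19% of all genes. Mki67 had 283, 293 and 306 CPM in Ifngr1-KO and 264, 327 and 287 CPM in sgNTC cells when adherent, where the lines overlapped. DNA replication genes were higher in both cultures (medians 0.56 and 0.43), with 6 of 26 more positive when detached and 10 without Ifngr1-KO replicate 2. Cholesterol synthesis had a median of 0.66 in detached and -0.60 in adherent cells, with 20 of 22 members more positive. Sqle had 331, 354 and 342 CPM in Ifngr1-KO and 422, 427 and 421 CPM in sgNTC cells when adherent, the reverse of its order in detached cells. The integrated stress response had medians of 0.89 and 0.02 with 21 of 24 members more positive, hypoxia and glycolysis 0.60 and -0.08 with 19 of 24, ER chaperones 0.65 and 0.07 with 18 of 19, and integrins 0.25 and 0.08 with 9 of 14. Slc7a11 had 277, 244 and 253 CPM in Ifngr1-KO and 353, 353 and 401 CPM in sgNTC cells when adherent, and its difference between cultures was 2.77 ± 0.24 (adjusted p 1.55e-07).

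The interferon lists were low in Ifngr1-KO in both cultures. The 5 lists had a median of -1.61 in detached and -1.23 in adherent cells, and 84 of 104 genes were lower in each. The difference between cultures was called more negative at 28 and more positive at 13 of them. Igtp and Tgtp2 differed by -4.71 and -4.23 in adherent cells, close to their detached values, and the cultures were not called different (adjusted p 0.89 for Igtp). MHC class I genes were more negative in detached cells at 7 of 17 members, and at 2 without Ifngr1-KO replicate 2. Cd274 differed by -0.66 in adherent cells, which was not called (adjusted p 0.073), and the difference between cultures was -1.16 (adjusted p 0.031). Among the other named genes Nlrc5, Cd74, C4b, Fam221a, Mtss1l, Pkia and Slc25a27 had more negative line differences in detached cells, and Derl3, Cxcl13, Angpt2, Igf1, Ccl20, Prkg2 and Tlr7 more positive ones. Derl3, of ER-associated degradation, had 0.119, 0.393 and 0 CPM in Ifngr1-KO and 0.173, 0.743 and 0.482 CPM in sgNTC cells when detached. When adherent it had 0.451, 0.282 and 0.318 CPM in Ifngr1-KO and 34.2, 28.8 and 32.7 CPM in sgNTC cells.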

How the data were processed

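Polyadenylated RNA of 24 libraries was sequenced, 3 biological replicates in each of 8 groups per the labels. The submitters' processing notes name Trimmomatic, HISAT2, SAMtools, featureCounts (Subread 2.1.1) and DESeq2 and the builds mm10 and GRCm38. The deposited files hold raw counts per gene from featureCounts, per the file headers; both mates of a pair appear to have been counted, since 61.3% to 66.9% of the counts between 1 and 20 in the 6 libraries compared were even. Of 31062 features, 9 are transgenes, 30934 have a symbol and 7969 have no count. Genes were kept by edgeR's filterByExpr (minimum count 10), leaving 14622, which hold 99.97% to 99.99% of counts. A gene near absent in 1 line passes this filter if enough libraries of the other line hold it. Such a gene can then differ in 1 direction only.

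All 24 libraries were fitted in one model with edgeR 4.0.16 (TMM factors, robust quasi-likelihood, R 4.3.3), and p-values were adjusted by Benjamini-Hochberg over all genes tested. CPM values are scaled by TMM factors, which lay between 0.972 and 1.05 in these 6 libraries. The interactions subtract the line difference in PBS or in adherent wells from that in detached wells with IFN-gamma. Simulated counts had 50 of 14622 genes changed at each size, in the detached Ifngr1-KO group with IFN-gamma only, and all other means alike. The test recovered 36% of genes changed 1.25-fold, 64% of those changed 2-fold and 86% of those changed 4-fold. Of its calls 3.1% were false. In the data 54.8% of genes were called, so these rates do not carry over to the 8019 calls.

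Named genes were the 12 largest differences each way past the threshold, the 2 largest called each way in each list, the 8 largest called interactions each way, and a fixed set around the receptor, IRF1 and antigen presentation. Some named genes are not reported here. Epcam, Cldn3 and other markers at 0, Wt1, Msln, Krt18, Krt19, Dcn, Erap1, Psme2, Tgtp1 and the untested class II chains fall outside that rule and were named after their values were seen. Members and lists were chosen with earlier results of these data known. DESeq2 1.42.0, other scalings, no filter, only the compared groups, a replicate block and leaving out each library were tried as alternatives. Promoter windows come from RefSeq GRCm38.p6. Gene-level p-values measure the spread between wells of 1 line each.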

Additional observations from a re-analysis of the deposited data

Results flagged for a closer look

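The line difference of 195 genes changed between IFN-gamma and PBS in detached cells, and that of 4721 genes between detached and adherent culture with IFN-gamma, each by a test of the interaction in edgeR's quasi-likelihood fit at an adjusted p under 0.05. The named genes among them are given here as the log2 difference of the line differences.

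Between IFN-gamma and PBS, the interferon genes were more negative with IFN-gamma. The values were -5.43 for Psmb9, -4.34 for Zbp1, -3.71 for Tgtp2, -2.98 for Irgm2, -2.96 for Igtp and -2.95 for Gbp6. Ifi47 gave -2.59, Tap1 -2.30, Cd274 -1.66, Irf1 -1.44, Irf7 -1.16, B2m -0.93 and Irf9 -0.81. Outside these lists Btg2 gave -0.40. More positive with IFN-gamma were Wnt7b at 2.09, Rcor2 at 0.69, Atf5 at 0.60, Lgals3 at 0.59, Metrnl at 0.54, Gpi1 at 0.50, Smox at 0.49, Arf6 at 0.49, Vim at 0.35 and Wwc1 at 0.32.

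Between detached and adherent culture, the line difference was more negative when detached for Nlrc5 at -4.88, Cd74 at -3.46, Zbp1 at -3.13, C4b at -2.86, Fam221a at -2.85, Mtss1l at -2.70, Pkia at -2.70 and Slc25a27 at -2.53. Nlrc5 has no count in detached Ifngr1-KO cells, so its value depends on the prior count. It was more positive for Derl3 at 4.92, Cxcl13 at 3.58, Angpt2 at 2.92, Slc7a11 at 2.77, Igf1 at 2.62, Ccl20 at 2.51, Prkg2 at 2.43 and Tlr7 at 2.39.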

How the results depend on the processing

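The count of genes that differed between the lines stayed within 1.5 times its value of 8019 under every alternative run. Leaving out 1 library gave 7454 to 7737 genes in all, 3735 to 4402 higher, 3298 to 3728 lower and 1693 to 1811 past 2-fold. The interaction with treatment moved more. Its count of 195 became 524 with no filter on low counts, 467 with DESeq2, and 75 to 280 with 1 library left out. The count for the interaction with culture, 4721, ranged from 4235 to 4720 with 1 library left out and was 5038 with DESeq2. With library totals in place of TMM factors, the split with treatment was 55 more positive and 151 more negative against 79 and 116, and that with culture was 1759 and 2858 against 2776 and 1945.

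The response to IFN-gamma in Ifngr1-KO cells, 0 genes, became 33 with no filter, 1 with DESeq2, 1 with only the groups compared and 0 to 5 with 1 library left out. In sgNTC cells the count of 300 became 652 with no filter, 482 with DESeq2 and 127 to 346 with 1 library left out. These alternatives for the responses, and the gene lists without the 2 libraries that stood apart, were chosen after seeing the data. The Trp53 difference, not called in any of these fits, changed sign, to 0.00655 with RLE factors, 0.059 with no filter, 0.0031 with the replicate block, 0.00654 with DESeq2 and, with 1 library left out, lay between -0.0435 and 0.088. The cause of these changes was not tested.

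Replicate numbers did not pair the libraries, since deviations of same-numbered libraries correlated at -0.0184, -0.0486 and 0.0174. With the replicate block the counts were 7984 for the line difference, 207 and 4713 for the interactions, 0 for the Ifngr1-KO response and 296 for the sgNTC response. Of the 166 named genes 156 kept their call and direction under all alternatives run, as did 8 of 25 named for the interaction with treatment and 13 of 16 for that with culture. Genes under about 1 CPM rest on few counts, and their fold changes are imprecise.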
